A study of Arabidopsis thaliana with 16 samples.

Results

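Peaks at transcript ends are ChIP-seq peaks that the authors annotated as TTS, the class of their annotation for the end of a transcript. They were taken from the 6 peak lists made 2 h after flg22 treatment of Arabidopsis thaliana seedlings expressing WRKY33, WRKY18 or WRKY40 with an HA tag. The class held 2429 of the 14393 peaks at 2 h, and the 12 lists of the series held 16600 peaks in all. The other 11964 peaks at 2 h were mostly promoter peaks (7838).

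The groups were WRKY33-HA, WRKY18-HA and WRKY40-HA complementation lines, each given 1 µM flg22 for 2 h and each also taken untreated at 0 h, and untagged Col-0 wild type at both times. All seedlings were 12 days old and grown under 16 h of light and 8 h of dark, and each group had 2 biological replicates. Chromatin was precipitated with an anti-HA antibody, and the wild-type libraries served as controls for peak calling, 1 per time and replicate for all 3 lines. The labels do not state the promoter that drove each tagged factor or the number of independent lines, and there was no untreated sample at 2 h, so time and flg22 cannot be told apart.

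WRKY proteins are plant transcription factors that bind short W-box motifs, and many of them act in immunity. flg22 is a peptide of bacterial flagellin that is perceived at the cell surface and starts pattern-triggered immunity. WRKY33 is known for driving camalexin synthesis and for resistance to fungi that kill their host, and WRKY18 and WRKY40 are close relatives of each other that act partly redundantly to restrain defence. Arabidopsis genes lie close together, so the sequence after a transcript end is often the upstream region of the next gene.

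In each list at 2 h, transcript ends took a similar share of the peaks. WRKY33-HA had 277 of 1653 peaks at transcript ends in replicate 1 (16.8%, 95% exact interval 15.0 to 18.6) and 409 of 2656 in replicate 2 (15.4%, 14.0 to 16.8). WRKY18-HA had 307 of 1801 (17.0%, 15.3 to 18.9) and 517 of 2994 (17.3%, 15.9 to 18.7). WRKY40-HA had 362 of 2017 (17.9%, 16.3 to 19.7) and 557 of 3272 (17.0%, 15.8 to 18.4). Both WRKY33-HA lists lay below the other 4 lists, by little. The mean share was 16.1% ± 0.960 in WRKY33-HA, 17.2% ± 0.157 in WRKY18-HA and 17.5% ± 0.654 in WRKY40-HA (SD, n = 2 each). WRKY33-HA minus the other lines was -1.24 percentage points (two-sided exact permutation test over 6 lists, p = 0.0667, the smallest that 15 arrangements allow, adjusted p = 0.333 over 5 tests). WRKY18-HA minus WRKY40-HA was -0.328 points (exact permutation p = 1, smallest possible 0.333).

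**Figure D1:**
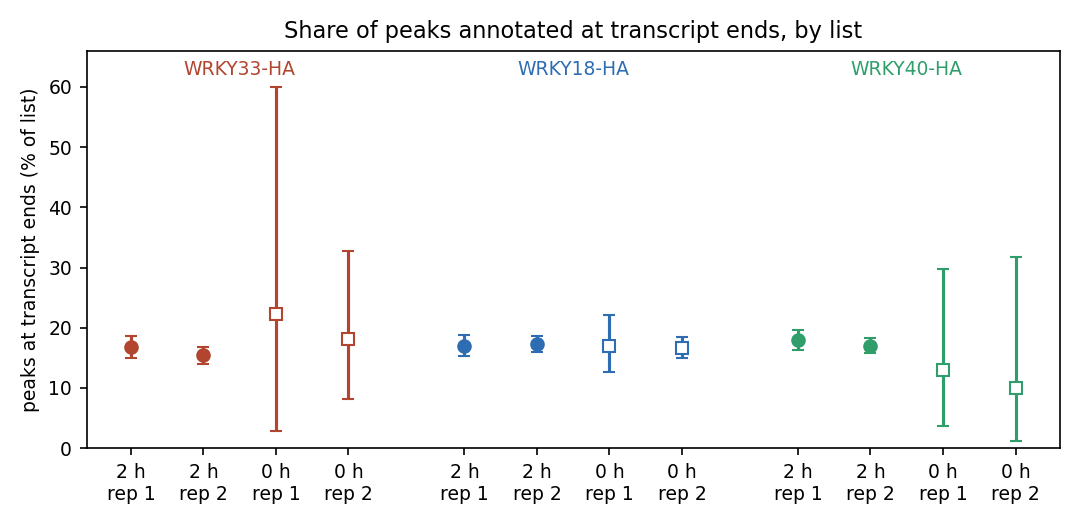
Share of the peaks of each list annotated at transcript ends, in percent, with 95% exact binomial intervals, for the 3 lines at 2 h (filled circles) and 0 h (open squares). The 6 lists at 2 h lie between 15.4% and 17.9%, and the short 0 h lists of WRKY33-HA and WRKY40-HA have wide intervals.

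The 0 h lists had 367 transcript-end peaks among 2207. The share in untreated WRKY18-HA was 16.9% (44 of 260) and 16.7% (307 of 1843), within the intervals of its 2 h lists. Untreated WRKY33-HA had 2 of 9 and 8 of 44 peaks there, and untreated WRKY40-HA had 4 of 31 and 2 of 20. As the plot of shares by list shows, those 4 lists are too short to place their share.

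Most transcript-end peaks lay well away from any gene start. The authors gave each peak the nearest gene start, and for 1259 peaks (51.8%) this was the start of the gene whose end was annotated, at a median of 1767 bp downstream of it (111 to 6468 bp). For 769 peaks (31.7%) it was the start of another gene, with the peak upstream of it at a median distance of -1626 bp (-4885 to -1001 bp). The remaining 401 (16.5%) lay downstream of the start of another gene, at a median of 1718 bp. No member lay from 1000 bp upstream to 100 bp downstream of its assigned start, which follows from the annotation, since such peaks are called promoter peaks there. In the gene order of the RefSeq table, 949 of the 1148 peaks with differing end and start genes in that table had these genes side by side (82.7%), and 1107 had them at most 2 places apart (96.4%). The share upstream of another gene was 33.8% in WRKY33-HA, 31.2% in WRKY18-HA and 30.5% in WRKY40-HA. All members lay on chromosomes 1 to 5. They belonged to 885 end genes, of which 864 had a gene type in the RefSeq table and 830 of those were protein-coding (96.1%, against 72.4% of all loci in the table). This share was not taken for the genes of other peaks, so the contrast cannot be read as particular to transcript ends.

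**Figure D2:**
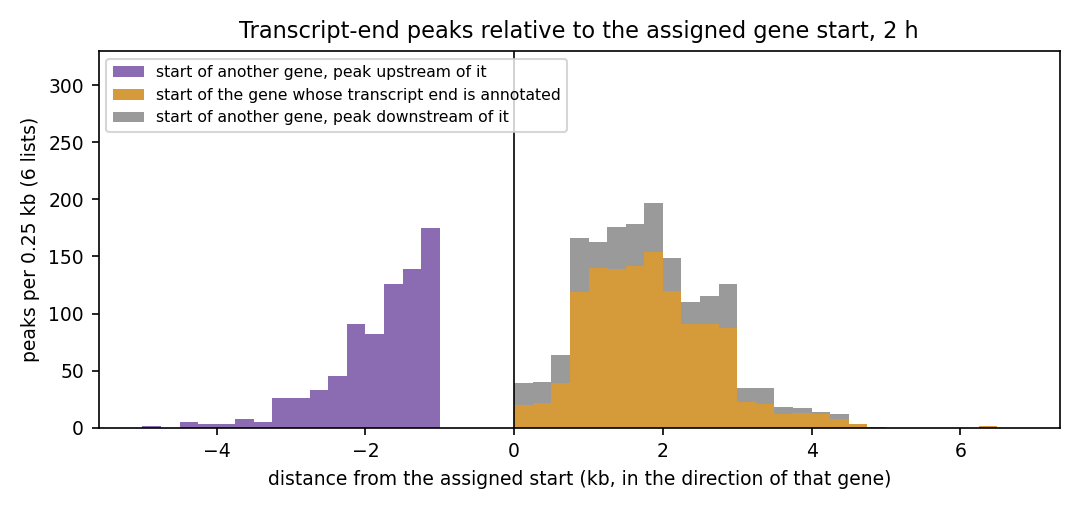
Number of transcript-end peaks of the 6 lists at 2 h per 0.25 kb of distance from the gene start assigned by the authors, stacked by whether that start belongs to the gene whose end is annotated or to another gene. Peaks assigned to their own gene have a median of 1767 bp, and those upstream of another gene begin at -1001 bp.

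The strongest reproducible transcript-end sites were at genes of several kinds. Few of the 10 best of WRKY33-HA were also among the 10 best of another line. A site was reproducible where peaks of both replicates of a line overlapped, and a transcript-end site carried the annotation in both. The 10 best of each line by mean rank of the deposited peak score lay at 21 distinct places, of which WRKY18-HA and WRKY40-HA shared 6, WRKY33-HA and WRKY40-HA 3, WRKY33-HA and WRKY18-HA 1, and all 3 lines 1, which is included in each pair. A place outside the 10 best of a line can still be a site of that line. Most of the 10 best of WRKY33-HA were transcript-end sites in all 3 lines. Each of the 10 overlapped 2 h peaks of both other lines. The scores that follow are the authors' own values, and their scale is not stated. They rank sites within a list, and values of different lists are set side by side as a description only.

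The best site of WRKY33-HA lay at the end of PSKR1 (AT2G02220, chr2:583036-584039), which encodes a receptor kinase for the growth peptide phytosulfokine. Its score was 43.7 and 70.5 in the 2 replicates of WRKY33-HA, 43.2 and 83.4 in WRKY18-HA, and 41.9 and 131 in WRKY40-HA. The site held 1028 and 1390 tags (reads) in WRKY33-HA, against 45 and 36 tags in the wild-type controls. It was in all 6 lists at 2 h, and at 0 h in WRKY18-HA replicate 2 alone, at 25.4.

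AT4G20006, which the files describe as a hypothetical protein, carried the 1 site among the 10 best of every line (chr4:10839689-10841086). Its score was 41.3 and 34.4 in WRKY33-HA, 96.2 and 70.7 in WRKY18-HA, and 110.2 and 92.0 in WRKY40-HA. It was also in both 0 h lists of WRKY18-HA, at 17.9 and 32.7, below the 2 h scores of the same line.

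For WRKY18-HA and WRKY40-HA the best site was at the end of LPA2 (AT5G51545, chr5:20937407-20938788), a gene for the assembly of photosystem II. There WRKY18-HA scored 93.1 and 114 and WRKY40-HA 104 and 147, while WRKY33-HA scored 21.8 and 24.6. The tags were 5093 and 6067 in WRKY18-HA against 33 and 37 in wild type. Untreated WRKY18-HA scored 20.2 and 68.4 at this site, again below its 2 h values in both replicates.

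EBF2, which encodes an F-box protein that removes the ethylene-response factor EIN3, is the gene nearest to a strong site at the end of AT5G25360 (chr5:8797941-8799886), at -1833 bp from the EBF2 start. The score was 17.0 and 37.5 in WRKY33-HA, 70.3 and 82.7 in WRKY18-HA, and 42.7 and 97.7 in WRKY40-HA. Untreated WRKY18-HA had it too, at 24.5 and 62.6. The end of AT1G29850, described as a DNA-binding-like protein, scored 29.0 and 22.5 in WRKY33-HA, 81.5 and 67.0 in WRKY18-HA, and 101 and 86.2 in WRKY40-HA. At 0 h it stood in both WRKY18-HA lists, at 26.1 and 26.4.

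Among other leading sites, GLU2 and AT1G65490 were uneven between the lines, while UBC27 ranked high within the lists of all 3. The end of GLU2, a ferredoxin-dependent glutamate synthase gene (AT2G41220), scored 60.6 and 114 in WRKY18-HA and 63.3 and 117 in WRKY40-HA. In WRKY33-HA it was in replicate 2 alone, at 18.3. At AT1G65490, a hypothetical protein, the score was 15.8 and 16.6 in WRKY33-HA, 64.5 and 82.7 in WRKY18-HA, and 106 and 102 in WRKY40-HA, and no 0 h list held it. The end of UBC27, a gene for a ubiquitin-conjugating enzyme (AT5G50870), scored 43.4 and 28.1 in WRKY33-HA, 91.5 and 39.99 in WRKY18-HA, and 109 and 65.0 in WRKY40-HA. Its mean rank percentile, low for strong peaks, was 4.63 in WRKY33-HA, 4.05 in WRKY18-HA and 1.59 in WRKY40-HA.

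The translation initiation factor gene AT4G11160 stood the other way round from GLU2. Its end scored 36.4 and 58.9 in WRKY33-HA, and it was in replicate 1 alone of WRKY18-HA, at 15.8, and of WRKY40-HA, at 13.8. The remaining best sites of WRKY33-HA were at AT5G46295, AT1G67910, AT5G38310, AT5G60720, AT1G05310 next to the zinc transporter gene ZIP5, and AT1G51690 next to DOF1, a Dof zinc finger gene. Those of WRKY18-HA included AGP15, an arabinogalactan protein gene, AT2G26190 next to IQD6, and AT3G13790, a cell wall invertase gene. Those of WRKY40-HA included the F-box gene AT1G12190 and AT5G53840, next to the VQ-motif gene AT5G53830.

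At AT1G68670 the annotation itself differed between lists. The site (chr1:25783942-25784910) was a transcript end in both WRKY18-HA lists, which scored 47.5 and 142, and a promoter peak in the WRKY33-HA lists (25.7 and 43.1) and the WRKY40-HA lists (69.8 and 193). It lay at a median of -1053 bp, close to the limit of the promoter class. Members just inside that limit began at -1001 bp on the upstream side and at 105 bp on the downstream side. Of 1533 transcript-end peaks that overlapped a peak of the other replicate, 1429 had the annotation in that replicate too (93.2%, exact interval 91.8 to 94.4). No such share is given here for promoter or other peaks, so whether it is usual for the annotation was not tested.

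**Figure D3:**
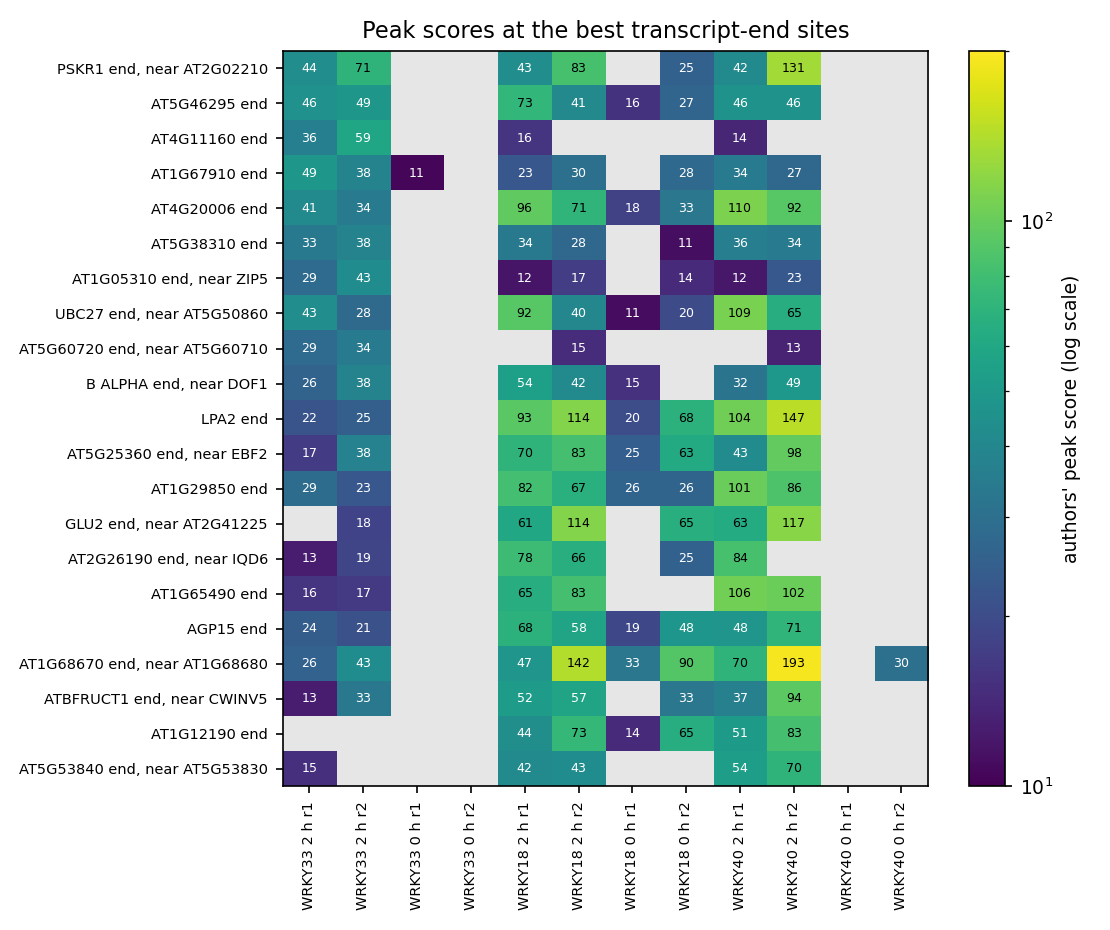
Authors' peak scores (colour, log scale, value printed) at the 21 best reproducible transcript-end sites, in rows, across the 12 lists, in columns, and grey where a list has no peak. Scores of 2 h lists are high for WRKY18-HA and WRKY40-HA at LPA2, and the 0 h columns are filled mainly for WRKY18-HA.

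Transcript-end peaks did not differ from other peaks of the same list beyond the spread between lists in strength or in how often they were found again. The median score percentile, where a low value is a strong peak, was 53.5 against 49.9 for other peaks in WRKY33-HA replicate 1 and 52.8 against 49.5 in replicate 2. In WRKY18-HA it was 45.7 against 51.4 and 49.9 against 49.9, and in WRKY40-HA 48.4 against 50.4 and 52.3 against 49.6. The mean difference was 0.318 ± 3.63 percentile points (SD, n = 6 lists), higher in 3 lists and lower in 2 (two-sided exact permutation test by sign flips, p = 0.812, adjusted p = 1, smallest possible p = 0.0312). Among the 100 best peaks of a list, transcript ends held 13 and 17 in WRKY33-HA, 21 and 20 in WRKY18-HA, and 19 and 21 in WRKY40-HA.

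A transcript-end peak was found in the other replicate in 73.3% and 48.7% of cases in WRKY33-HA, against 75.9% and 46.6% of other peaks, and 75.5% and 46.9% of all peaks. In WRKY18-HA it was 83.1% and 50.1%, against 82.7% and 49.1% of other peaks and 82.8% and 49.3% of all. In WRKY40-HA it was 86.5% and 54.6%, against 85.1% and 50.5% of other peaks and 85.4% and 51.2% of all. Transcript ends were higher in 5 of 6 lists, by 1.01 ± 2.21 percentage points (exact permutation p = 0.344, adjusted p = 0.859). Replicate 2 lists were longer, so a smaller share of their peaks had a partner.

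Overlap with a 2 h list of another line differed between transcript ends and other peaks by less than the spread between lists. It was 77.3% and 65.3% in WRKY33-HA against 75.9% and 66.3% of other peaks, and 76.2% and 66.2% of all peaks. In WRKY18-HA it was 97.4% and 92.1% against 95.7% and 93.2%, with 96.0% and 93.0% of all. In WRKY40-HA it was 94.2% and 88.9% against 94.4% and 88.6%, with 94.4% and 88.7% of all. The difference was 0.143 ± 1.17 points (SD, n = 6 lists, exact permutation p = 0.719, adjusted p = 1). The 6 lists are not independent, because replicates of a line overlap and lines of a replicate shared a wild-type control.

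**Figure D4:**
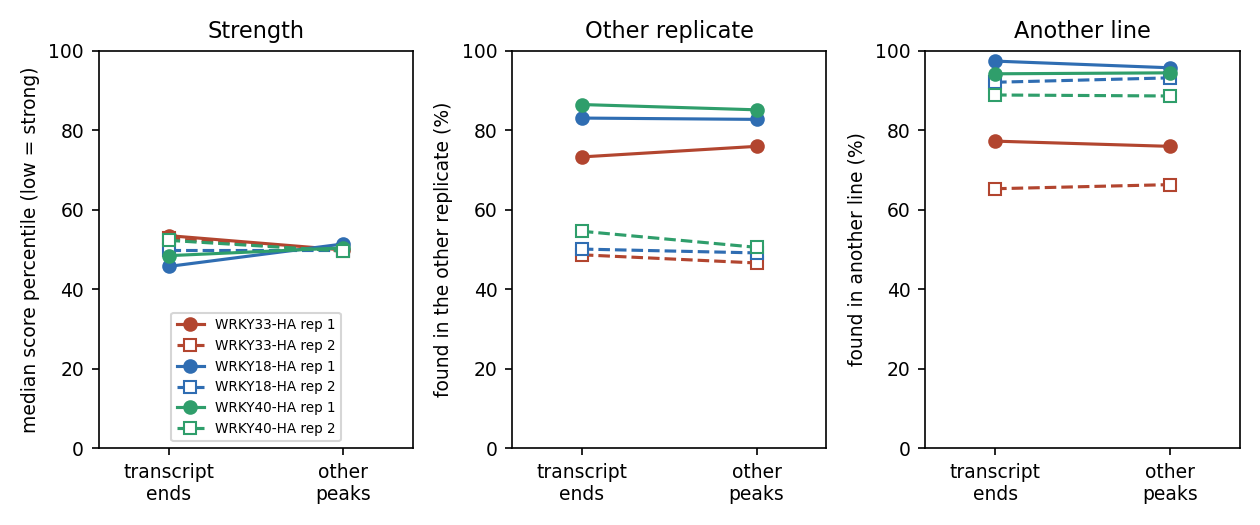
Transcript-end peaks (left in each panel) against other peaks of the same list (right) for the 6 lists at 2 h: median score percentile, percent found in the other replicate, and percent found in another line. The lines run nearly level, with differences from -5.66 to 3.60 percentile points in strength and from -2.66 to 4.04 percentage points for the other replicate.

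In the untagged control, the median score was slightly higher at transcript ends than at other peaks in 5 of 6 lists. It was 0.782 against 0.681 and 0.760 against 0.623 at WRKY33-HA peaks, 0.719 against 0.608 and 0.683 against 0.601 at WRKY18-HA peaks, and 0.592 against 0.622 and 0.643 against 0.575 at WRKY40-HA peaks. Whether this bears on the calls was not tested. Median tags per transcript-end peak were 276 and 222 in WRKY33-HA, 638 and 683 in WRKY18-HA, and 585 and 602 in WRKY40-HA.

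Within the class, peaks upstream of another gene were found again more often than peaks assigned to their own gene, in a comparison added after the data were seen. They were found in the other replicate in 69.7% against 65.6% of cases on average over lists, higher by 4.09 ± 4.22 points and in 6 of 6 lists (exact permutation p = 0.0312, the smallest possible, adjusted p = 0.0469 over 3 tests). Overlap with another line was 89.5% against 84.0%, higher by 5.42 ± 3.47 points and in 6 of 6 lists (exact permutation p = 0.0312, adjusted p = 0.0469). The first difference was 7.74 points without replicate 1 and 0.437 points without replicate 2, so it came mostly from the replicate 2 lists. Score percentile differed by -3.39 ± 5.84 (exact permutation p = 0.219). Both calls were lost when only the better-scoring 50% of each list was used (p = 0.188 and 0.25, exact permutation), and at equal list lengths (p = 0.156 for both). An overlap between lists was counted from each side, so the 6 lists are not independent and the p-values of this comparison may be too small.

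The reproducible transcript-end sites numbered 187 of 1237 sites in WRKY33-HA, 234 of 1450 in WRKY18-HA and 287 of 1658 in WRKY40-HA. Another 28 sites of WRKY33-HA, 40 of WRKY18-HA and 36 of WRKY40-HA had the annotation in 1 replicate only and were set aside. Merged over the lines they made 407 sites. All 3 lines held 110 of these (27.0%, exact interval 22.8 to 31.6), against 474 of 1959 other sites (24.2%) and 24.7% of all sites. WRKY18-HA and WRKY40-HA without WRKY33-HA held another 110 (27.0%), against 27.5% of other sites. WRKY33-HA shared 10 with WRKY40-HA alone (2.46%, against 3.78% of other sites) and 6 with WRKY18-HA alone (1.47% against 2.40%). Sites of 1 line were 78 in WRKY33-HA (19.2%, against 21.9% of other sites), 26 in WRKY18-HA (6.39% against 6.89%) and 67 in WRKY40-HA (16.5% against 13.4%). The intervals of transcript-end and other sites overlapped in every one of these 7 patterns. Of the 110 sites of all 3 lines, 83 were annotated at a transcript end in all 3.

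Between pairs of lines, 86.3% of the transcript-end sites of WRKY18-HA (202 of 234) were sites of WRKY40-HA, against 84.8% of its other sites. Of the transcript-end sites of WRKY40-HA, 73.2% (210 of 287) were sites of WRKY18-HA, against 75.5% of its other sites. For WRKY33-HA, 52.9% were sites of WRKY18-HA, against 51.4% of other sites, and 55.1% were sites of WRKY40-HA, against 54.0%. Transcript ends and other sites thus overlapped between lines to a like degree, within the exact intervals of these shares. With lists cut to equal length, transcript-end peaks of WRKY18-HA and WRKY40-HA overlapped in 84.7% of cases in the same replicate and 67.7% across replicates, beside 66.1% between the replicates of WRKY18-HA and 69.4% between those of WRKY40-HA. Other peaks gave nearly the same values, 82.5% in the same replicate, 65.9% across replicates, and 65.7% and 68.6% between the replicates of WRKY18-HA and of WRKY40-HA. The shared wild-type control and other features of a replicate cannot be told apart here.

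A stricter count kept the sites that overlapped none of the 4 lists of the remaining lines at 2 h. It left 37 of the 187 transcript-end sites of WRKY33-HA (19.8%, against 19.5% of other sites), 4 of 234 in WRKY18-HA (1.71% against 1.28%) and 11 of 287 in WRKY40-HA (3.83% against 2.17%). The best of WRKY33-HA lay at the end of NTRB, a thioredoxin reductase gene, at -1928 bp from the start of PIRL4 (chr4:16844068-16844777), with scores of 20.5 and 23.8 and 352 and 463 tags. The next were at AT5G15140 (18.4 and 24.6), the ribosomal protein gene AT1G70600 (17.7 and 24.97), the GDSL lipase gene RXF26 (16.5 and 21.2) and ZIP5 (18.3 and 18.1). Those of WRKY18-HA were at AT3G50651, AT3G23620, AT5G59360 and AT5G08320, with scores from 10.2 to 18.2. The best of WRKY40-HA were at AT5G56260, at -1555 bp from HAP8 (10.4 and 37.1), RER1C (19.0 and 11.6), AT4G36150, a TIR-NBS-LRR resistance gene (10.4 and 19.7), ZFP8 (10.8 and 13.3) and LBD11 (11.0 and 13.0). In the ranks of their lists, with low percentiles for strong peaks, the sites named here had mean percentiles of 16.1 to 27.4 in WRKY33-HA, 43.6 to 86.9 in WRKY18-HA and 54.6 to 81.4 in WRKY40-HA.

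Before treatment, WRKY18-HA already had peaks at most of its transcript-end sites, and the other lines had almost none. A 0 h peak of the same line was present at 149 of the 234 WRKY18-HA sites (63.7%, exact interval 57.2 to 69.8), against 63.1% of other sites and 63.2% of all. In WRKY33-HA it was present at 3 of 187 (1.60%), against 1.27% of other sites and 1.29% of all. In WRKY40-HA it was 1 of 287 (0.348%), against 1.05% of other sites and 0.905% of all. The difference between transcript ends and other sites had a 95% interval from -6.17 to 7.33 points in WRKY18-HA, from -1.60 to 2.26 in WRKY33-HA and from -1.57 to 0.173 in WRKY40-HA. Whether these shares depend on the length of the 0 h lists was not tested. In WRKY40-HA the longer list, replicate 1 with 31 peaks, held 0 of the sites. The shorter one, replicate 2 with 20 peaks, held 1. In WRKY33-HA and WRKY18-HA the longer list held more. WRKY18-HA replicate 1, with 260 peaks, held 44 of the sites (18.8%), and replicate 2, with 1843 peaks, held 144 (61.5%).

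Where WRKY18-HA had a peak at both times, the score was mostly higher at 2 h. In replicate 1 the median log2 ratio of 2 h over 0 h was 1.07 at 44 transcript-end sites, 42 of them higher at 2 h (95.5%), and 1.0996 at 175 other sites, 159 of them higher (90.9%). In replicate 2 it was 0.50 at 144 sites, 120 of them higher at 2 h (83.3%), and 0.44 at 721 other sites, 564 of them higher (78.2%). The sites were chosen as 2 h peaks, so these ratios are a description. From the untreated side, all 44 transcript-end peaks of WRKY18-HA replicate 1 at 0 h, and 265 of 307 in replicate 2, overlapped a 2 h peak of the same line in either replicate. No such share is given here for other 0 h peaks, so these counts cannot be read as particular to transcript ends. Both 0 h lists of WRKY18-HA held 39 of the 234 sites (16.7%, against 13.1% of other sites). The 5 best of these were at LPA2, AT4G20006, AT5G25360 next to EBF2, AT1G29850 and AGP15, which scored 68.2 and 57.7 at 2 h and 19.1 and 48.2 at 0 h.

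The few sites of the other lines with a 0 h peak are named here after their values were seen. In WRKY33-HA they were at AT1G67910 (49.0 at 2 h and 10.5 at 0 h, replicate 1), at AE7 upstream of the transcription factor gene MYB62 (49.5 and 12.2, replicate 2) and at the potassium channel gene KT2/3 (38.5 and 11.4, replicate 2). In WRKY40-HA the site was at NPY3 (114 at 2 h and 12.0 at 0 h, replicate 2). The score was higher at 2 h at each of the 4 sites. The same held at every other site with a peak at both times. These were 6 in replicate 1 and 10 in replicate 2 of WRKY33-HA, and 14 in replicate 2 of WRKY40-HA. All sites were chosen as 2 h peaks, so this is a description.

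Genes with a peak at their end had a promoter peak in the same list more often than loci in general, though so had their neighbours. In WRKY33-HA 9.39% and 16.1% of end genes had one, against 6.17% and 8.85% of the genes directly beside them and 2.49% and 3.91% of all loci. In WRKY18-HA it was 12.7% and 17.9%, against 8.98% and 8.89% of neighbours and 2.49% and 4.06% of all loci. In WRKY40-HA it was 13.0% and 17.6%, against 7.85% and 11.0% of neighbours and 2.69% and 4.41% of all loci. End genes were above their neighbours in all 6 lists, and this order was not tested. All loci are an unlike baseline, since 72.4% of them are protein-coding, against 96.1% of end genes with a gene type. This was not adjusted for.

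Among the gene lists, those of WRKY, ethylene and MAP kinase genes held end genes of reproducible sites, and the other lists held none. Of all 37887 loci, 0.488% carried such a site in WRKY33-HA, 0.623% in WRKY18-HA and 0.747% in WRKY40-HA, and 409 loci (1.08%) did so in any line. None of 28 pattern-receptor genes, 7 camalexin genes, 10 indole glucosinolate genes, 24 salicylic acid genes or 9 genes of secretion and penetration resistance did, nor did any of 23 photosynthesis genes that served as a control list. In any line it was 2 of 71 WRKY genes (2.82%; 75 names were sought), 4 of 24 ethylene genes (16.7%) and 2 of 16 genes of MAP kinase cascades (12.5%), each above the 1.08% of all loci. In each single line this was 1 WRKY gene, 2 ethylene genes and 1 MAP kinase cascade gene. These are counts of 4 or fewer genes and were not tested. The 1.08% is a rough baseline, since it counts all loci, of which 72.4% are protein-coding. At 1.08% of loci, a list of 7 to 28 genes will often hold no end gene. The lists without one, the control list included, therefore decide nothing. LPA2, the photosystem II gene named above, is not in the control list. The lists are also not complete, as IGMT3, a tandem copy of IGMT1, was the end gene of a reproducible WRKY40-HA site.

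WRKY48, which encodes another WRKY factor, carried a site 3089 bp downstream of its start (chr5:20093343-20094172). Its score was 24.0 and 86.2 in WRKY18-HA and 22.4 and 115 in WRKY40-HA, and WRKY33-HA had it in replicate 2 alone, at 29.4. Promoter peaks of WRKY48 were weaker, at 11.5 in WRKY18-HA replicate 2 and 12.2 in WRKY40-HA replicate 2, and WRKY33-HA had none. WRKY66 had an end peak in WRKY33-HA alone (13.4 and 11.9) and no promoter peak. A site at the end of CLE21 lay at -1126 bp from the start of WRKY51.

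Among the 24 ethylene genes of the list, end sites were at ACS6, ACS8, ERF1 and ERF5. ACS6 and ACS8 encode enzymes that make the ethylene precursor ACC, and ERF1 and ERF5 are ethylene-response factor genes. ERF8 and ERF12, outside the list, also had reproducible end sites in WRKY18-HA and WRKY40-HA. ACS6 had both kinds of peak. Its end scored 16.5 and 30.1 in WRKY18-HA and 29.5 and 36.6 in WRKY40-HA, and its promoter scored 15.2 and 34.3 in WRKY18-HA and 19.5 and 47.6 in WRKY40-HA. In WRKY33-HA the end peak was in replicate 2 alone (12.4) and the promoter peak in replicate 1 alone (17.7). ERF5 scored 19.6 and 36.2 at its end in WRKY33-HA, was in replicate 2 alone of WRKY18-HA (13.7), and scored 11.1 and 20.0 in WRKY40-HA. Its promoter peaks scored 14.5 in WRKY33-HA replicate 2, 13.4 in WRKY18-HA replicate 2, and 12.3 and 17.9 in WRKY40-HA. ERF1 had end peaks in both replicates of WRKY18-HA alone (10.8 and 27.1), and in replicate 2 of WRKY33-HA (28.9) and of WRKY40-HA (27.8), with no promoter peak in any list. ACS8 had end peaks in both replicates of WRKY33-HA alone (11.2 and 10.3), and in replicate 2 of WRKY18-HA (13.6) and replicate 1 of WRKY40-HA (13.3).

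Of the 16 MAP kinase cascade genes of the list, MKK9 and MEKK1 had end sites. MKK9, a kinase gene upstream of ethylene and camalexin synthesis, had one in WRKY18-HA (26.0 and 31.2) and WRKY40-HA (27.4 and 26.6). It had neither an end peak in WRKY33-HA nor a promoter peak in any 2 h list. MEKK1, which acts early in flg22 signalling, had an end peak in both replicates of WRKY33-HA (14.1 and 32.0). It had one in replicate 2 alone of WRKY18-HA (12.5) and of WRKY40-HA (12.2). MPK2, outside the list, was the end gene of a site reproducible in WRKY40-HA alone (10.9 and 36.9).

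Further immune genes were the assigned start of a transcript-end site and not its end gene. PAD3, the last enzyme gene of camalexin synthesis, was the nearest start to a site at -2371 bp, at the end of AT3G26820 (chr3:9885104-9886353). That site scored 23.3 and 32.8 in WRKY33-HA, 17.8 and 39.2 in WRKY18-HA, and 20.0 and 56.6 in WRKY40-HA. The promoter peaks of PAD3 scored 22.5 and 34.3 in WRKY33-HA, 10.2 and 16.9 in WRKY18-HA, and 18.05 and 25.7 in WRKY40-HA. End and promoter peaks were thus alike in WRKY33-HA, and the end peak was the stronger in both replicates of WRKY18-HA and WRKY40-HA.

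PEN2, a myrosinase gene of the indole glucosinolate pathway, was the nearest start to a site at -1144 bp, at the end of BGLU17, which scored 24.2 and 21.7 in WRKY33-HA and 14.1 and 16.7 in WRKY18-HA, and 44.5 in WRKY40-HA replicate 1 alone. ACO4 (AT1G05010), an ethylene-forming oxidase gene, was the nearest start to a site at -1614.5 bp that scored 18.1 and 16.3 in WRKY33-HA, 28.4 and 33.2 in WRKY18-HA, and 33.2 and 41.2 in WRKY40-HA. MKP1, a phosphatase gene that restrains MAP kinases, MAPKKK5, PUB23 and IGMT1 were the others. The PUB23 site was reproducible in WRKY40-HA at the end of AT2G35920, and WRKY18-HA replicate 2 alone had a peak there annotated at the end of PUB23 itself (14.98). At WRKY51 and MAPKKK5, whose sites lie at -1126 and -1131 bp, replicates of a line gave 1 site different annotations. In WRKY18-HA the MAPKKK5 site was a transcript end in replicate 1 (25.8) and a promoter peak in replicate 2 (37.4). The IGMT1 site lay at the end of its tandem copy IGMT3. How reads shared by such near copies were placed is not given in the sources used here, so that site is uncertain.

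**Figure D5:**
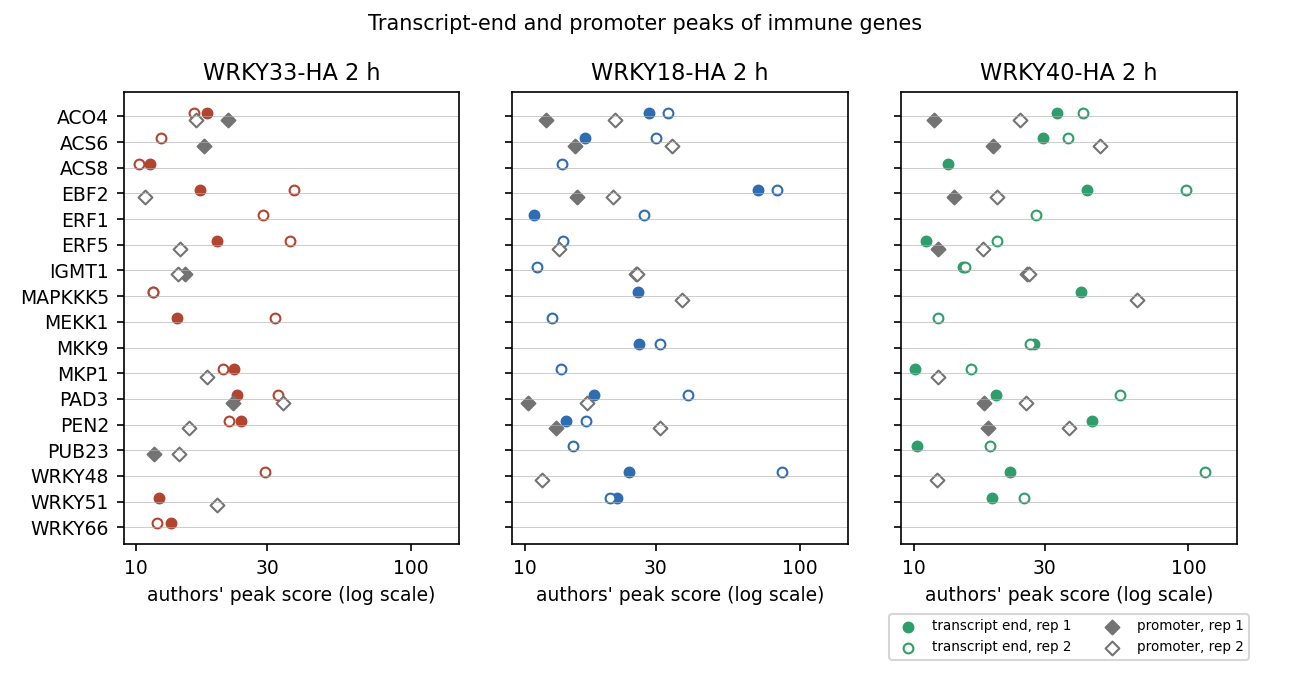
Authors' peak scores (log scale) of transcript-end peaks (circles) and promoter peaks (grey diamonds) for 17 immune genes that are the end gene or the assigned start of a reproducible transcript-end site, by line at 2 h, with replicate 1 filled and replicate 2 open. WRKY48 has end peaks above its promoter peaks, up to 115 in WRKY40-HA, and MKK9 has no promoter peak. The site upstream of EBF2, at the end of AT5G25360, scores above the EBF2 promoter peaks, up to 97.7 in WRKY40-HA.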

How the data were processed

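Binding was measured by ChIP-seq from 2 g of seedlings per precipitation, with 7 to 20 M reads of 100 bp per library, per the labels' protocols. The submitters' processing notes name HOMER, Bowtie 0.12.7, cutadapt 1.2.1 and FastQC 0.11.2, and the build TAIR10. Peak caller, settings and threshold: not given in the sources used here. The authors deposited 1 list per HA library, with replicates not pooled. Per the file headers, each peak has a score and a tag count for the HA library and for wild type, a fold ratio of both, a −log10 q-value, an annotation and a distance to a gene start. The lists have 0 to 276 peak numbers missing, so absence from a list is no evidence of no binding.

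Members were the peaks whose annotation begins with TTS. Members, gene lists and tests were chosen with earlier results of these data known. Intervals overlapping by 1 bp were counted as shared. Coordinates are 1-based in TAIR10, as in the lists, and merged sites run over all lists that hold them. Gene names and gene order came from a RefSeq table of assembly TAIR10.1, and list members whose symbol names another gene there were matched by locus. The 10 best transcript-end sites of each line were named, with the 5 best found in 1 line, the 5 best with a peak in both 0 h lists, and list members with a reproducible site. Lists, not peaks, were the samples in exact permutation tests, two-sided, with Benjamini-Hochberg adjustment and a threshold of 0.05. Shares have exact (Clopper-Pearson) 95% intervals, which cover counting error only. Median tags of 222 to 683 per transcript-end peak in the 2 h lists set the precision of each value. The labels tie the lines of a replicate to 1 wild-type control, so replicate numbers were taken as pairing the lists, and at equal list lengths transcript-end peaks of WRKY33-HA overlapped those of WRKY18-HA in 48.9% of cases within a replicate and 44.4% across replicates, and those of WRKY40-HA in 49.0% and 43.8%. Alternatives covered thresholds, list lengths, overlap, strength measures, comparison sets and left-out replicates. Scripts ran in Python 3.11.15 (scipy 1.17.1, pandas 2.3.3, numpy 2.4.6, matplotlib 3.10.9), and the tests were checked on simulated data. Sequences were not analysed here.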

Additional observations from a re-analysis of the deposited data

How the results depend on the processing

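WRKY33-HA minus the other lines in transcript-end share kept its sign under every alternative run, from -2.67 points with the better-scoring 50% of each list to -0.739 points without replicate 2 (-1.75 without replicate 1). With the replicate as a block it was -1.24 points (exact permutation p = 0.111, the smallest that 9 arrangements allow). Without the block the smallest possible p was 0.0667. Neither test could reach 0.05, so they cannot show whether pairing matters for the call. WRKY18-HA minus WRKY40-HA turned to 0.395 points with the better 50%, was 0 at equal list lengths, and lay between -0.901 and 0.245 with a replicate left out. The strength difference turned to -0.570 percentile points with tags, -0.707 with −log10 q and -0.192 with the better 50%, and lay between -1.34 and 1.98 with a replicate left out. Overlap with another line turned to -1.85 points with the better 50% and lay between -0.771 and -0.453 with a replicate left out, where the main value of 0.143 lies outside because lists of the left-out replicate no longer count as partners. None of these passed a test in any setting. For peaks upstream of another gene, the difference in the other replicate was 3.84 points with the better 50% and 3.77 at equal lengths, both past no threshold, and 0.437 to 7.74 with a replicate left out. For another line it was 1.12, 2.79, and 5.23 to 5.61, where 3 lists cannot reach 0.05. The 0 h share of WRKY18-HA moved to 54.8% with the better 50%, and to 18.8% and 61.5% with 1 list of 0 h left out; that of WRKY33-HA was 2.38% and 0.535% to 1.07%, and that of WRKY40-HA 0.735% and 0% to 0.348%, under the same alternatives. End genes with a promoter peak, 13.4% in WRKY33-HA, 16.0% in WRKY18-HA and 15.8% in WRKY40-HA over both replicates, were 7.69%, 11.0% and 10.1% with the better 50%, and with a replicate left out ranged over 9.39% to 16.1%, 12.7% to 17.9% and 13.0% to 17.6%. The cause of these shifts was not tested. In all, 70 values under an alternative kept direction and side of the threshold or moved less than their error, 10 turned in sign or reached 0, 9 moved further and 8 lost the threshold. The tests of W-box motifs and of gene orientation were not run, since neither a genome sequence nor strands were used here; position relative to the assigned start was described in their place. Lists of only 9 to 44 peaks limit the 0 h comparison in WRKY33-HA and WRKY40-HA.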
